A study of Mus musculus with 16 samples.

Results

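Complement genes were described in the hippocampus of mice in which the transcription factor CREB was made constantly active or was inhibited. The genes were chosen by name, as 9 components, receptors and regulators of the complement system, and every probe set that the platform annotation gives to 1 of them was taken. Of the 9 genes, 7 (C1qa, C1qb, C1qc, C3ar1, C5ar1, Serping1 and Cd59a) had 13 probe sets of their own among the 45101 on the array, which has probe sets of their own for 18193 genes. C4b shares its only probe set with C4a, so that probe set is reported as C4a/C4b and kept out of the counts, and C3 was not analysed here. Of the 13 probe sets, 11 from 6 genes were bright enough to be tested, that is, above the median of all intensities (99.1) on at least 2 of the 16 arrays. The 2 of C5ar1 were not.

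Each array held hippocampal RNA pooled from 3 to 4 mice alike in age, sex and genotype. The 6 groups were tetO-VP16-CREB mice at 3 weeks off doxycycline (dox) and their control littermates (3 pools each, 6 weeks old), tetO-VP16-CREB mice at 1 week off dox and their control littermates (2 pools each, 3 weeks old), and TetO-A-CREB-95 mice and their control littermates (3 pools each, 6 weeks old). The strain was given as C57BL/6J throughout and the control littermates as WT. The VP16-CREB cohorts, littermates included, were reared on dox, a drug that keeps the tetO transgene silent until it is withdrawn, and the A-CREB cohort never received it. VP16-CREB is a form of CREB that activates transcription without an upstream signal, and A-CREB is a dominant negative protein that keeps CREB from DNA. By the series design, the mice were bitransgenic, the A-CREB arrays came from an earlier dataset and the 1 week pools were newly prepared, and the driver line that turns the tetO transgene on is not given in the sources used here. The 1 week and 3 week cohorts also differ in age, so time off dox and age cannot be told apart between them.

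Complement is a cascade of blood and tissue proteins that tags cells, debris and microbes for removal. C1q, a protein built of A, B and C chains encoded by C1qa, C1qb and C1qc, recognises the target and starts the classical pathway, which cleaves C4 and then C3. The fragments released are sensed by the receptors encoded by C3ar1 and C5ar1, while Serping1 encodes the C1 inhibitor and Cd59a a membrane protein that blocks the terminal pore. In the brain C1q is made mainly by microglia, and complement tags synapses for removal by these cells during development and in disease models.

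The 3 C1q genes lie next to each other on chromosome 4 (GRCm38), C1qb at 136880126 to 136886200, C1qc at 136889801 to 136892936 and C1qa at 136895916 to 136898844. C3ar1 lies on chromosome 6, C5ar1 on chromosome 7, and Serping1 and Cd59a on chromosome 2. RefSeq promoter windows (GRCm38.p6, 250 bases before to 50 after the start site) were found for C1qb, C1qc, C3ar1, C5ar1 and Cd59a. The windows of C1qb, C1qc and C3ar1 are shown because these genes moved together, and that of Cd59a because it did not move with them. Capitals mark TGACG, the core of the CREB response element (CRE), and GAGGAA, the core bound by the myeloid factor PU.1, on either strand. C1qb is at chr4:136886151-136886450 (minus strand), C1qc at chr4:136892865-136893164 (minus strand), C3ar1 at chr6:122856108-122856407 (minus strand) and Cd59a at chr2:104095551-104095850 (plus strand).
C1qb: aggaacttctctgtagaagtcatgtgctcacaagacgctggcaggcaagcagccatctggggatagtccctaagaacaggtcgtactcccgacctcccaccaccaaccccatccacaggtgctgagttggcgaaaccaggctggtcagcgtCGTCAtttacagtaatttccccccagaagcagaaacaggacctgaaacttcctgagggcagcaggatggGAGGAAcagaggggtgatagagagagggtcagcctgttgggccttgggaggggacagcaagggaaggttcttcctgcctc
C1qc: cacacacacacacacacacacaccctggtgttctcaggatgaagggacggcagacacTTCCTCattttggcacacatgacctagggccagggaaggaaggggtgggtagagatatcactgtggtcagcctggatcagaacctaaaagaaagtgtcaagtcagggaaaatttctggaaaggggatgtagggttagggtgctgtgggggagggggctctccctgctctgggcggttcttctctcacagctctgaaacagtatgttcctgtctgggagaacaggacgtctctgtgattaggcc
C3ar1: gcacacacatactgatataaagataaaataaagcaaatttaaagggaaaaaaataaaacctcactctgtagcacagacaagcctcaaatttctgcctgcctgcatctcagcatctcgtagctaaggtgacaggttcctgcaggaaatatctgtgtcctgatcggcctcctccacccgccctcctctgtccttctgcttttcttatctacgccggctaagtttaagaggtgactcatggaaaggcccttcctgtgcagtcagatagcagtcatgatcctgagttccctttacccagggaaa
Cd59a: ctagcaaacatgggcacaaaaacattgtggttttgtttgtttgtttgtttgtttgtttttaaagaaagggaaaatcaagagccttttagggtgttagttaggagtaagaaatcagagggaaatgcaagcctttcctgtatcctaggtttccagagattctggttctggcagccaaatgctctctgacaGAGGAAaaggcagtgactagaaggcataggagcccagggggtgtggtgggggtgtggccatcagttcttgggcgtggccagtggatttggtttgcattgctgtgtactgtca

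The full CRE, TGACGTCA, was in none of the 5 windows and in 1.79% of the 32851 windows of all genes. Its core TGACG, which the full CRE contains, was found once, in C1qb, with its first base 99 bases before the start site, and 20.8% of all windows hold it. GAGGAA was found once each in C1qb (30 bases before the start site), C1qc (193) and Cd59a (62), and 28.3% of all windows hold it. The interferon-stimulated response element was found in Cd59a alone among the 5, against 3.44% of all windows. A match is a description of the letters and not evidence of binding.

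The values are intensities on a linear scale, scaled by the authors to the same trimmed mean of 500 on every array. Array medians ran from 118.9 to 129.3 for VP16-CREB mice and littermates at 3 weeks, and from 74.99 to 93.23 elsewhere, so levels are compared within cohorts first. Neuron markers were present in every group: the summed intensity of 10 neuron and hippocampus genes was 55020 to 90530 over all arrays. The general neuron genes Snap25 and Syt1 were the brightest of them, so the sum does not mark the hippocampus. In VP16-CREB pools at 3 weeks their means were 24390 and 14400, against 1286 for Wfs1 and 162 for Prox1. Of the 10, 2 were called lower at 3 weeks and 0 higher, where 176 of all 27044 probe sets fell. In the VP16-CREB pools at 3 weeks the dentate granule neuron genes Prox1 and C1ql2 were lower than in littermates by 1.20 and 1.78 on the log2 scale (adjusted p = 0.000268 and 0.00397). C1ql2 also stood lower, without a call, at 1 week (-1.20, adjusted p = 0.485) and in A-CREB (-1.11, adjusted p = 0.846). Prox1 stood at -0.13 and -0.15 there.

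At 3 weeks off dox, the genes of all C1q chains, the C3a receptor gene C3ar1 and the C1 inhibitor gene Serping1 rose in VP16-CREB hippocampus, by 3.40-fold to 6.21-fold at the brightest probe set of each. C4a/C4b rose 6.27-fold. Cd59a did not pass the test, and C5ar1 was too dim to test. Of the 11 probe sets tested, 8 rose and none fell, from 5 of 6 genes, where 3.28% of all 27044 probe sets tested rose. In 9 of the 11 every VP16-CREB pool lay above every littermate pool, against 14.9% of all probe sets. The median log2 difference was 2.28 over the 11 and -0.01 over all probe sets tested. Tests are limma's moderated test on log2 of the intensity plus 10, called at a Benjamini-Hochberg adjusted p under 0.05, and folds are of the intensity plus 10. Of the 8 littermate arrays, 2, 1 and 3 were above the median at the 3 C3ar1 probe sets, so the second of them passed the brightness filter only through transgenic pools. Without it, 7 of 10 rose and 8 of 10 did not overlap.

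C1qa, the A chain gene, had intensities of 11950, 10270 and 12470 in the VP16-CREB pools at 3 weeks, against 2061, 1989 and 2053 in littermates. The lowest transgenic pool thus lay far above the highest littermate. The rise was 5.64-fold (log2 2.50, SE 0.20, adjusted p = 7.92e-06). For C1qb, the B chain gene, the brightest probe set read 7270, 7334 and 8655 in VP16-CREB pools and 1601, 1672 and 1476 in littermates. The groups did not overlap, and the rise was 4.86-fold (log2 2.28, SE 0.21, adjusted p = 2.16e-05). The other C1qb probe sets, which carry an Affymetrix suffix for probes that may match more than 1 transcript, rose 5.75-fold and 4.05-fold (adjusted p = 2.63e-06 and 5.23e-06). The 3 probe sets of C1qb thus moved the same way, with log2 differences of 2.02 to 2.52. C1qc, the C chain gene, read 8017, 7561 and 9400 in VP16-CREB pools and 1224, 1564 and 1219 in littermates, a 6.21-fold rise (log2 2.63, SE 0.25, adjusted p = 2.58e-05).

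The C4a/C4b probe set stands for the component that C1 cleaves next, and C4a is annotated as a transcribed pseudogene in GRCm38. It read 3516, 3927 and 3670 in VP16-CREB pools at 3 weeks, against 561.5, 595.3 and 588.1 in littermates. The pools of each group were close together, and the rise was 6.27-fold (log2 2.65, SE 0.18, adjusted p = 2.63e-06).

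C3ar1 encodes the receptor of C3a, the small fragment of C3. Its brightest probe set read 311.7, 443.8 and 484.6 in VP16-CREB pools and 83.97, 85.46 and 77.75 in littermates, a 4.51-fold rise (log2 2.17, SE 0.18, adjusted p = 1.07e-05). Both groups were far dimmer than those of C1q, but they did not overlap. A second C3ar1 probe set rose 5.04-fold (281.9, 402.6 and 493.3 against 82.15, 77.42 and 48.77, adjusted p = 0.000383). The third read 190.3, 278.6 and 297.9 in VP16-CREB pools and 54.49, 4.252 and 70.88 in littermates, and its log2 difference of 2.63 (SE 0.69) missed the threshold (adjusted p = 0.0518). Without littermate replicate 2, the pool at 4.252, the log2 difference was 1.85 (adjusted p = 0.214), and without littermate replicate 3 it was 3.11 and passed (adjusted p = 0.0475). The probe set passed in 6 of 16 alternative settings in all. C5ar1, the receptor gene of C5a, was dim in all groups: its brighter probe set read 32.41 to 55.49 in VP16-CREB pools at 3 weeks and 1.607 to 46.53 in littermates, and no array reached the median of all intensities at either of its probe sets.

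Serping1, the C1 inhibitor gene, read 651.6, 895 and 930.8 in VP16-CREB pools at 3 weeks and 230.2, 216.2 and 254.8 in littermates. The groups were well apart, and the rise was 3.40-fold (log2 1.76, SE 0.17, adjusted p = 2.94e-05), the smallest among the genes that rose. Cd59a, whose product guards cells against the terminal pore, read 318, 397.1 and 422.3 in VP16-CREB pools and 365.3, 317.8 and 409.2 in littermates. The groups overlapped, with a log2 difference of 0.05 and a 95% interval of -0.48 to 0.59 (adjusted p = 0.97). The other Cd59a probe set differed by -0.09 (interval -0.79 to 0.62, adjusted p = 0.966). These intervals do not reach the log2 difference of Serping1, and centring each array on its median turned the sign of the brighter probe set (-0.02).

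Replicate 3 was the highest of the VP16-CREB pools at 3 weeks for all 11 probe sets, Cd59a included. Without it, the 8 calls of that comparison were also 8.

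**Figure D1:**
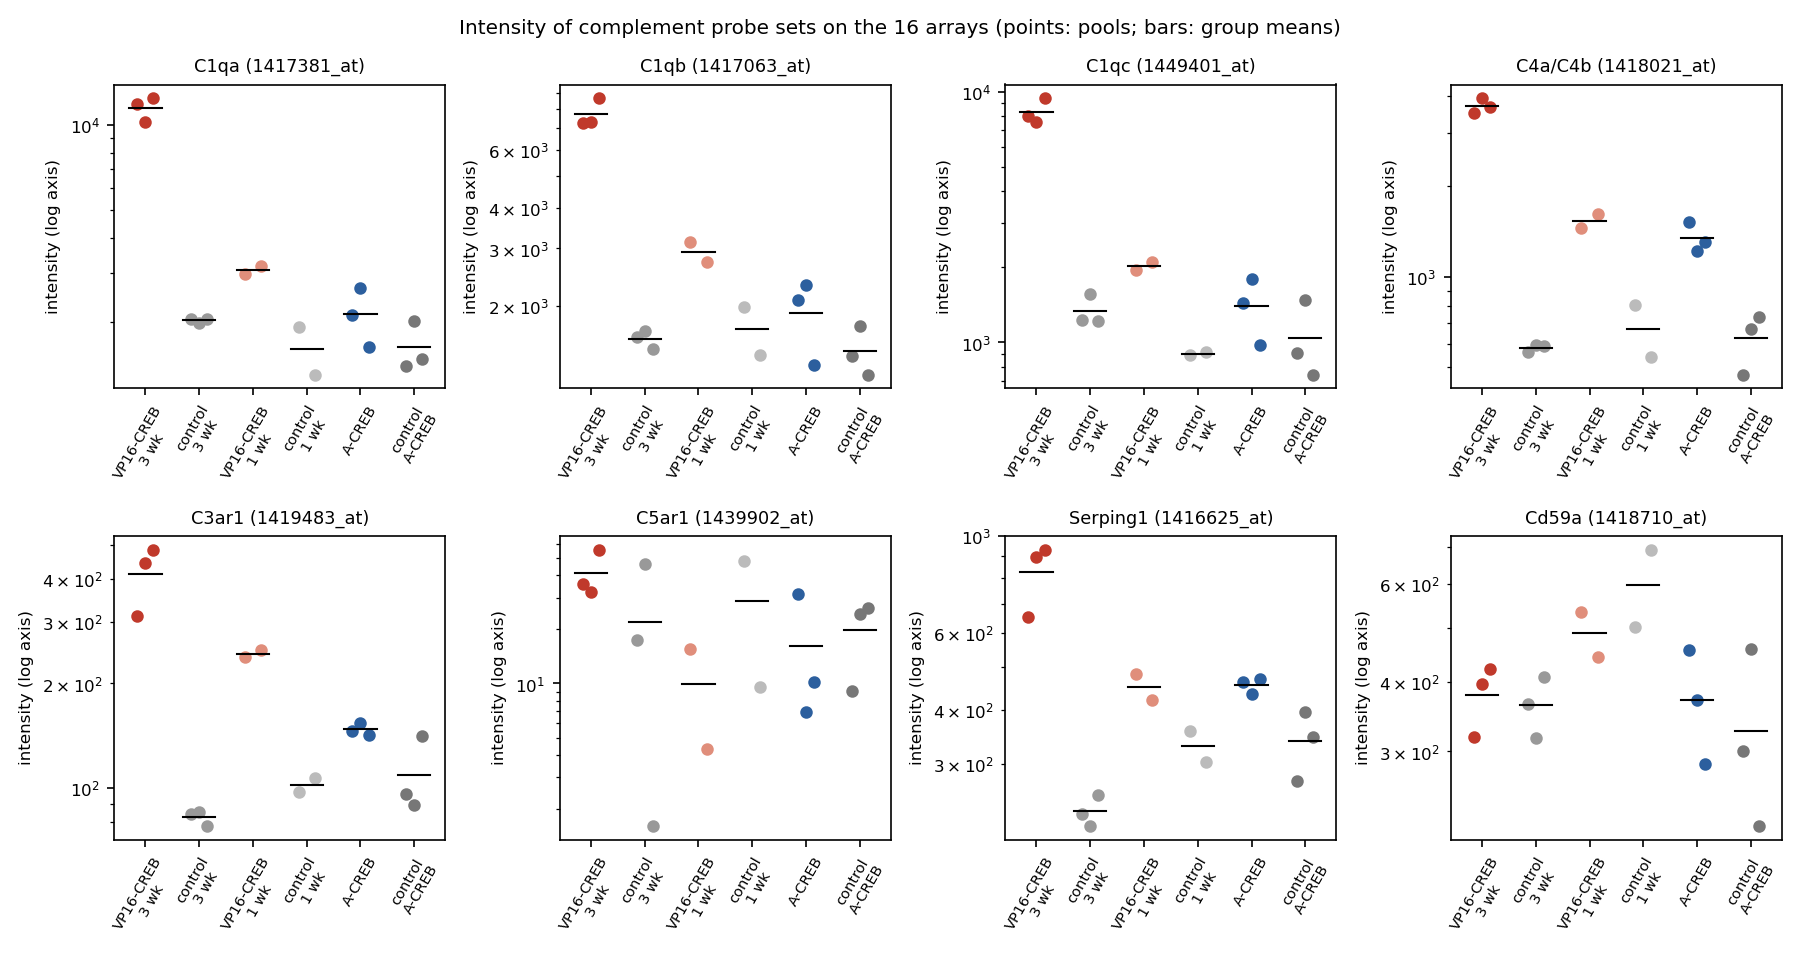
Intensity (log axis) of the brightest probe set of each gene and of the C4a/C4b probe set in the 16 pools, by group, with points for pools and bars for group means. The VP16-CREB pools at 3 weeks stand above their littermates in every panel but those of C5ar1 and Cd59a, and for C1qa they lie at 10270 to 12470 against 1989 to 2061.

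At 1 week off dox the same genes stood higher in VP16-CREB pools than in littermates, by less. But no probe set of a single complement gene passed the test among 11, where 0.218% of all probe sets rose. At an unadjusted p under 0.05 were 8 of the 11 and 1424 of all 27044 probe sets. In 9 of the 11 both VP16-CREB pools lay above both littermate pools, which held for 15.7% of all probe sets. The counts of 8 and 9 include the second C3ar1 probe set, which passed the brightness filter only through transgenic pools. The median log2 difference of the 11 was 0.84, and that of all probe sets 0.02. C1qa read 2964 and 3177 in VP16-CREB pools and 1922 and 1306 in littermates (log2 0.95, SE 0.25, adjusted p = 0.231). C1qb read 3135 and 2734 against 1984 and 1419 at its brightest probe set (log2 0.80, adjusted p = 0.525), and C1qc 1940 and 2085 against 887.4 and 917.9 (log2 1.15, adjusted p = 0.251). The C1q groups were thus apart in these 4 arrays, without passing the test.

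C3ar1 came nearest to the threshold at 1 week. Its brightest probe set read 238.5 and 249.2 in VP16-CREB pools and 97.66 and 106.9 in littermates (log2 1.18, SE 0.22, adjusted p = 0.0539), and the second read 234 and 283 against 47.04 and 74.53 (log2 1.94, SE 0.37, adjusted p = 0.0543). Filtering on the mean intensity gave adjusted p of 0.0385 and 0.0383 for this pair. That mean includes the VP16-CREB pools, where both probe sets were high, so this filter is not independent of the difference. The C4a/C4b probe set, with 1459 and 1621 in VP16-CREB pools and 806.7 and 540.1 in littermates, did pass at 2.31-fold (log2 1.21, SE 0.23, adjusted p = 0.0498). That call was lost in 9 of 14 alternative settings, among them without littermate replicate 2 and without VP16-CREB replicate 1 or 2 (adjusted p = 0.272, 0.224 and 0.219). Serping1 read 483 and 420.3 in VP16-CREB pools and 356.7 and 303.9 in littermates (log2 0.44, interval -0.01 to 0.89, adjusted p = 0.963). Cd59a read 535.3 and 443 against 502.9 and 691.8 at the brightest probe set (log2 -0.27, adjusted p = 1), and the groups overlapped there. At the other probe set the VP16-CREB pools (540.1 and 417.9) lay just below the littermates (547.9 and 569.5), with a log2 difference of -0.23 (adjusted p = 1).

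The effect at 3 weeks was set against the effect at 1 week as a contrast of the differences from littermates. No complement probe set passed that test, and among all 27044 probe sets 1 did (0.0037%). At an unadjusted p under 0.05 were 7 of the 11 and 1349 of all probe sets. For C1qa the effect was larger at 3 weeks by 1.55 on the log2 scale (95% interval 0.86 to 2.24, adjusted p = 0.197). For C1qb and C1qc the difference of effects was 1.48 and 1.49 (intervals 0.76 to 2.21 and 0.64 to 2.34, adjusted p = 0.257 and 0.431), and for Serping1 it was 1.32 (0.74 to 1.90, adjusted p = 0.197). For C4a/C4b it stood at 1.44 (0.82 to 2.07, adjusted p = 0.197). For C3ar1 it was 0.99 at the brightest probe set (0.37 to 1.62, adjusted p = 0.558) but 0.39 at the second (-0.64 to 1.42, adjusted p = 1). A dimmer C1qb probe set had a difference of 1.69 (adjusted p = 0.126) and passed after quantile normalization of the arrays (1.75, adjusted p = 0.0354).

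In A-CREB hippocampus no complement probe set passed the test (5 of 11 at an unadjusted p under 0.05), and neither did any of all 27044 (0%, with 1171 at an unadjusted p under 0.05). The count of 5 includes the second C3ar1 probe set, which passed the brightness filter only through transgenic pools. The log2 differences of the 11 ran from -0.10 to 0.68, with a median of 0.43, and the median of all probe sets was 0.00. In 4 of the 11 every A-CREB pool lay above every littermate pool, against 3.54% of all probe sets. C1qa read 2120, 2652 and 1633 in A-CREB pools and 1396, 2021 and 1489 in littermates, which overlap (log2 0.37, interval -0.06 to 0.81). C1qb and C1qc also overlapped at their brightest probe sets, with log2 differences of 0.36 and 0.43 (both adjusted p = 1). The other 2 C1qb probe sets did not overlap and are 2 of those 4, with log2 differences of 0.54 and 0.53 (adjusted p = 1 and 0.971). Littermate replicate 2 was the highest of its group for 10 of the 11 probe sets.

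Serping1 read 462.7, 434.8 and 471.3 in A-CREB pools and 274.5, 394.9 and 345.5 in littermates (log2 0.43, interval 0.07 to 0.80, adjusted p = 1), and C3ar1 145.9, 154.2 and 142.2 against 95.94, 89.24 and 141.3 (log2 0.43, interval 0.04 to 0.82, adjusted p = 1). The A-CREB pools of both genes lay above all littermates, for C3ar1 by a narrow gap. The C4a/C4b probe set had the largest difference of the probe sets described here, with 1520, 1224 and 1302 in A-CREB pools and 473.2, 670.2 and 735.4 in littermates (log2 1.11, SE 0.18, interval 0.72 to 1.51). It did not pass over all probe sets (adjusted p = 0.119), and its adjusted p ran from 0.0847 to 1 over the alternative settings. Cd59a overlapped at both probe sets (log2 0.22 and -0.10).

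**Figure D2:**
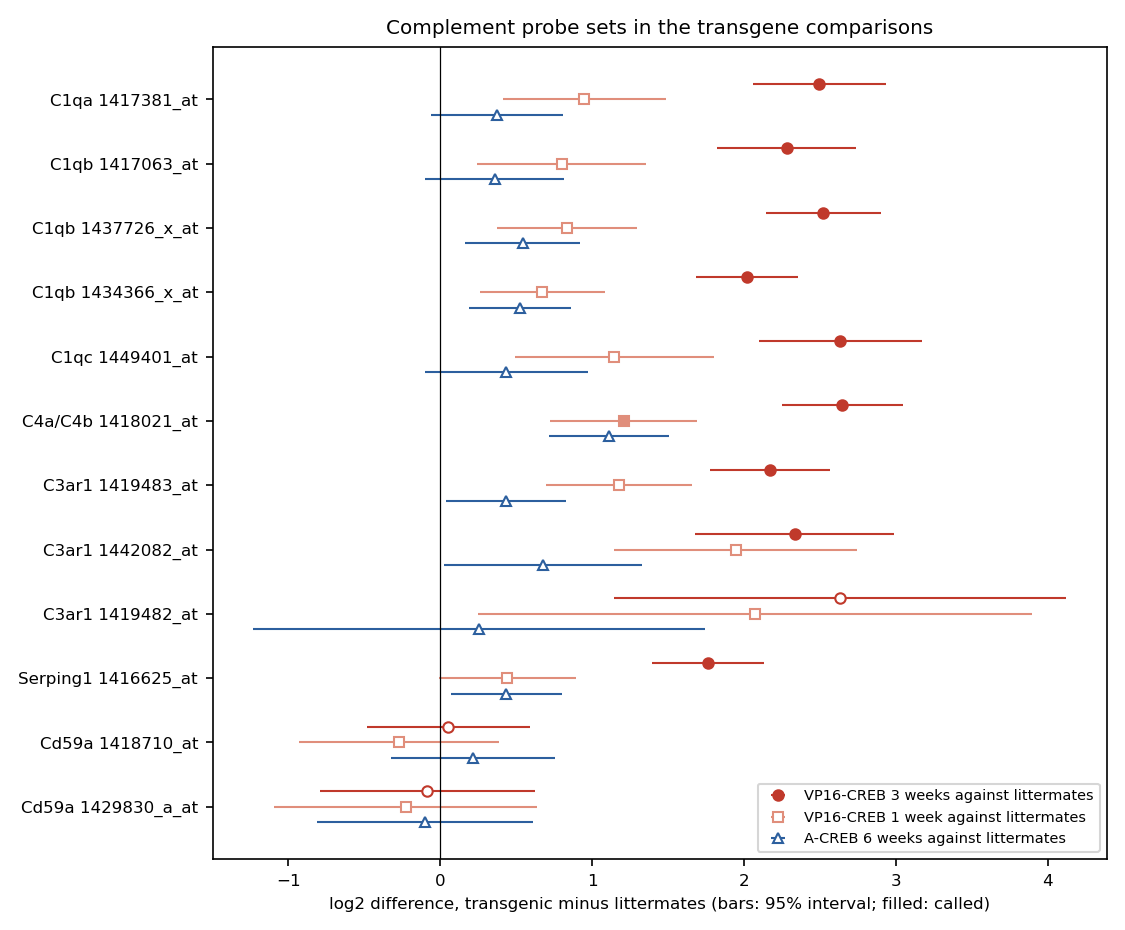
Log2 difference between transgenic pools and their littermates for the 12 probe sets tested, with 95% intervals, for VP16-CREB at 3 weeks, VP16-CREB at 1 week and A-CREB. Filled points passed the test: at 3 weeks all but Cd59a and 1 probe set of C3ar1, at 1 week C4a/C4b alone, and none in A-CREB.

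The effect of VP16-CREB at 3 weeks was larger than that of A-CREB for 7 of the 11 probe sets, from 5 genes, where 0.828% of all probe sets were higher in that contrast. The difference of effects was 2.12 (log2, SE 0.29, adjusted p = 0.00297) for C1qa, 1.92 (SE 0.30, adjusted p = 0.00756) for C1qb, 2.20 (SE 0.35, adjusted p = 0.00872) for C1qc and 1.74 (SE 0.26, adjusted p = 0.00527) for C3ar1 at their brightest probe sets. At C4a/C4b it was 1.54 (SE 0.26, adjusted p = 0.0121), a call that was lost with a replicate block (adjusted p = 0.0875). Serping1 was at 1.33 (SE 0.24, adjusted p = 0.0188), which was lost in 7 of 23 alternative settings. These included fits without littermate replicate 1 or 2 or VP16-CREB replicate 2 or 3 of the 3 week cohort (adjusted p = 0.0547, 0.0539, 0.0651 and 0.0736) and without A-CREB littermate replicate 2 (adjusted p = 0.0506). Cd59a was at -0.16 and 0.02 with adjusted p of 0.964 and 0.997. The lines differ in cohort and dox history as well as in transgene, and these cannot be told apart.

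By level, C1qa, C1qb and C1qc ran in the same order at the top: VP16-CREB at 3 weeks, then VP16-CREB at 1 week, then A-CREB. These neighbours did not overlap at any of the 5 probe sets of the 3 C1q genes. They come from different cohorts, and the share of all probe sets that separate in this way was not counted. For C1qa the means were 11560 ± 1148 (SD, n = 3), 3071 ± 150 (n = 2) and 2135 ± 510 (n = 3). Below them, A-CREB and the littermate groups overlapped with the next in order, except at the dimmest C1qb probe set, where littermates of the 1 week cohort (800 and 947.7) lay above those of the 3 week cohort (697.4 to 729.7). Littermate means of C1qa were 1614 to 2034. The C4a/C4b probe set differed in that A-CREB overlapped with VP16-CREB at 1 week (1349 ± 153, n = 3, against 1540 ± 114, n = 2) and lay apart from the highest littermate group (673.4 ± 188.5, n = 2). For Serping1 A-CREB and VP16-CREB at 1 week also overlapped, at 456.3 ± 19.1 and 451.7 ± 44.3. Cd59a was highest in the 1 week cohort of 3 week old mice, with 489.1 ± 65.3 in VP16-CREB pools and 597.4 ± 133.6 in littermates.

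Among 52 further genes of complement activation, regulation and reception, 44 had a probe set of their own and 24 were bright enough to test, each by its brightest probe set. At 3 weeks 3 of the 24 rose and none fell, where 3.28% of all probe sets rose, and their median log2 difference was 0.05. They encode subunits of complement receptors 3 and 4, the integrins that bind cleaved C3 on tagged surfaces. Itgax, the alpha subunit of receptor 4, read 495.4, 726.8 and 1017 in VP16-CREB pools and 37.51, 71.37 and 10.31 in littermates (log2 4.08, adjusted p = 0.000568). Itgb2, the beta subunit of both, read 790.6, 999 and 1180 against 118.9, 185.4 and 167.9 (log2 2.58, adjusted p = 0.000188). Itgam, the alpha subunit of receptor 3, read 231.8, 283.6 and 328.9 against 112.3, 93.92 and 116.5 (log2 1.30, adjusted p = 0.00959), and lost its call without VP16-CREB replicate 3 (adjusted p = 0.0608). The 3 integrin genes did not overlap between groups, as held for 14.9% of all probe sets. Itgax passed the brightness filter only through transgenic pools, with none of 8 littermate arrays above the median, and Itgam is also a general microglia marker.

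The other 21 genes of that list were not called at 3 weeks, but 6 of them passed when arrays were weighted by their quality: C1ra (log2 1.56), Masp1 (0.51), Lrp1 (0.35) and Cr1l (0.30) higher, and Csmd1 (-0.54) and Susd4 (-0.47) lower. These 6 are named after their values were seen, and the share of all probe sets that passed with weights was not counted. The values that follow are without weights. The early protease genes C1ra and C2 stood at 1.08 and 0.85 (adjusted p = 0.184 and 0.432), and Masp1, a protease of the lectin pathway, at 0.40 (adjusted p = 0.362). Clu and Vtn, which encode fluid-phase inhibitors of the terminal pathway, stood at 0.28 and -0.01 (adjusted p = 0.631 and 0.991). Of the membrane regulators, Cd55 was at -0.13, Cd46 at -0.23 and Cr1l, the mouse Crry gene, at 0.35 (adjusted p = 0.928, 0.862 and 0.19). The neuronal CUB and sushi domain gene Csmd1 stood at -0.52 (adjusted p = 0.093). Of the terminal and lectin pathways, Hc, C6, C8a, C9 and Mbl2 were among the genes too dim to test. None of the 24 was called at 1 week or in A-CREB, where the medians were -0.02 and -0.04 and where Itgb2 stood at 1.51 and 0.72 (adjusted p = 0.195 and 1).

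**Figure D3:**
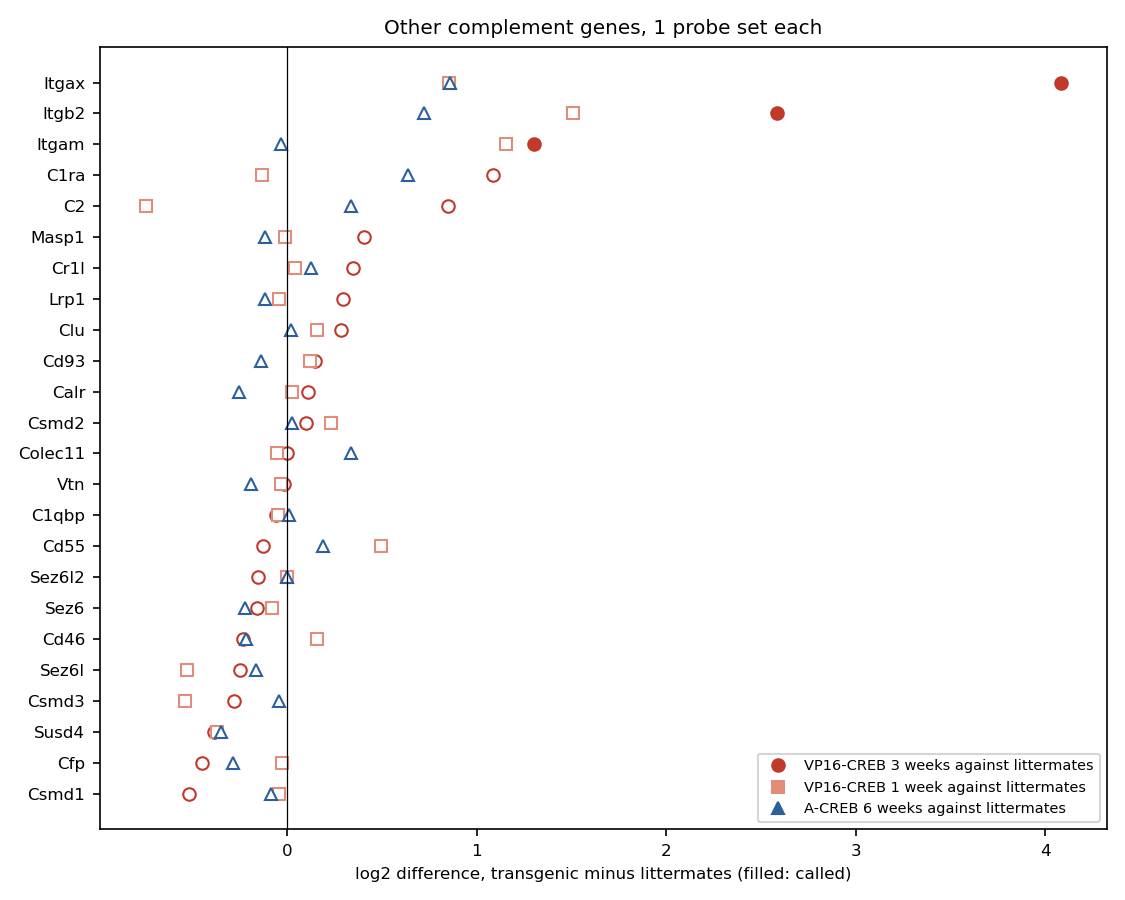
Log2 difference between transgenic pools and littermates of 24 other complement genes, 1 probe set each, sorted by their value in VP16-CREB at 3 weeks. Filled points mark an adjusted p under 0.05, and these are Itgax (4.08), Itgb2 (2.58) and Itgam (1.30) in VP16-CREB at 3 weeks.

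Markers of microglia moved with C1q. Of 17 microglia and macrophage markers tested, 16 rose at 3 weeks, where 3.28% of all probe sets rose. The other, P2ry12, was not called (log2 0.42, adjusted p = 0.801). The summed intensity of the 17 was 50560 to 61830 in VP16-CREB pools and 15120 to 15420 in littermates. At 1 week 3 of 17 rose (29650 to 35890 against 17120 to 21980), where 0.218% of all probe sets rose. In A-CREB none was called, and the sums lay above those of littermates by a narrow gap (20630 to 26460 against 17960 to 20330). In bulk RNA more cells of a type and more RNA per cell cannot be told apart, and the part of cell number in the complement rises was not tested. Of 11 astrocyte markers 2 rose at 3 weeks, Gfap and Aqp4, with sums of 80330 to 100300 in VP16-CREB pools and 63370 to 74760 in littermates. Of 10 choroid plexus and meninges markers none was called (9731 to 29310 against 18650 to 40020). Of 6 neutrophil genes 2 were bright enough to test, with sums of 350 to 403 in VP16-CREB pools and 146 to 256 in littermates. Mpo rose, and S100a8 was not called (log2 0.355, adjusted p = 0.876). Mpo passed the brightness filter only through VP16-CREB pools. Its highest intensities were 71.91, 37.93 and 38.69 in the 3 week, 1 week and A-CREB littermates and 53.14 in A-CREB pools, against the median of 99.1. At 1 week Gfap and Mpo also rose, by 1.80 and 1.82 on the log2 scale (adjusted p = 0.0229 and 0.00504). Sums of 7 lymphocyte genes were 346 to 432 and 227 to 235, and of 6 monocyte and perivascular macrophage genes 399.8 to 628.5 and 391.9 to 459, but only 1 and 3 of these genes were bright enough to test, and none of those 4 was called. The astrocyte, neutrophil and lymphocyte sums did not overlap between the groups at 3 weeks, and the part of these cells in the complement rises was not tested. None was called among 8 endothelial and pericyte genes, 6 oligodendrocyte genes and 1 blood cell gene tested. No marker read exactly 0 on any array.

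Within the microglia and macrophage list the rises at 3 weeks were uneven. Trem2 (log2 2.84), Ly86 (2.83), Cd68 (2.73), Tyrobp (2.68) and Ptprc (2.59) stood within or above the range of the C1q genes (2.28 to 2.63 at their brightest probe sets). Aif1 (2.16), Ctss (2.05), Laptm5 (1.96), Itgam (1.30) and Hexa (0.95) of the same list stood below that range. Genes of homeostatic microglia, which mark the resting state of these cells, also had smaller log2 differences than the C1q genes. Of the homeostatic genes, 10 of 11 rose, all but P2ry12, where 3.28% of all probe sets rose. The median log2 difference of the 11 was 1.16, and the largest was that of Fcrls at 2.00, above Laptm5, Itgam and Hexa. Taken per pool relative to the littermates of the cohort, the mean of C1qa, C1qb and C1qc was above the mean of these 11 genes by 1.502, 1.118 and 1.196 (log2) in the VP16-CREB pools at 3 weeks, against -0.10 to 0.17 in littermates. The excess was 0.24 and 0.35 in VP16-CREB pools at 1 week, against -0.07 and 0.07 in littermates. In A-CREB pools it was 0.27, 0.41 and 0.05, against -0.11 to 0.12 in littermates. These values are a description of the pools and were not tested.

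**Figure D4:**
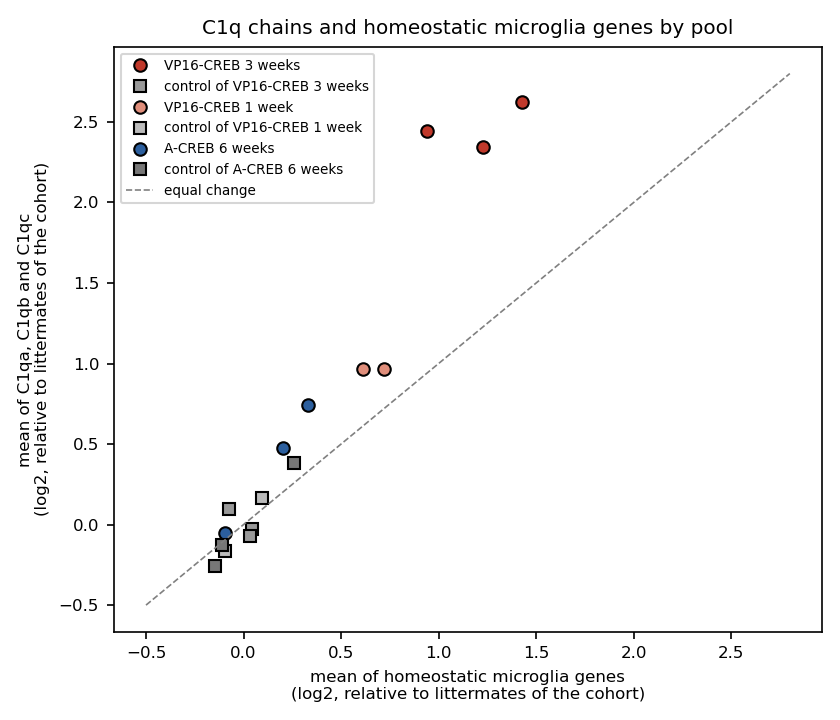
Mean log2 change of C1qa, C1qb and C1qc (vertical) against that of 11 homeostatic microglia genes (horizontal) in each of the 16 pools, both relative to the littermates of the same cohort. The VP16-CREB pools at 3 weeks lie at 2.35 to 2.62 for C1q and 0.94 to 1.43 for the microglia genes, above the dashed line of equal change.

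Over the 16 arrays, each taken relative to its cohort's littermates, the profile of the C1q genes was most like those of Cyba, a subunit of the phagocyte oxidase (Pearson r = 0.992), and Fcgr1, a receptor of IgG (r = 0.990), among 12717 genes. Next were Pon3, a paraoxonase (0.986), and, each at r = 0.982, the interferon-induced GTPase gene Igtp, the lysosomal protease gene Ctsd, Cd300c2, the phagosome metal transporter gene Slc11a1 and the IgG receptor gene Fcgr3. Their log2 differences at 3 weeks were 1.20 to 2.39. Among the complement genes the same measure was 0.949 for Serping1, 0.941 for C3ar1, 0.935 for the C4a/C4b probe set and 0.091 for Cd59a. These correlations describe arrays that fall into groups, in which the VP16-CREB pools at 3 weeks carry most of the range.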

How the data were processed

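The deposited values were intensities on a linear scale of Affymetrix mouse genome arrays, computed with MAS5 per the submitters' processing notes. Each array had a mean of 500 after 2% of the values at each end were left out. No detection calls or array files were used, and the number of arrays limits the precision. After 64 control probe sets were left out, log2 of the intensity plus 10 was taken, and 27044 probe sets above the overall median on at least 2 arrays were kept. All 16 arrays entered 1 limma model (limma 3.58.1, R 4.3.3) with a coefficient per group, with 10 residual degrees of freedom. P-values were adjusted by Benjamini-Hochberg over all probe sets of each comparison. Symbols came from the platform annotation and positions from RefSeq (GRCm38). Further genes and markers were taken at their brightest probe set, every called gene of the complement list was named, and 8 genes of like profile were ranked. The members and lists were chosen with earlier results of these data known. The method was checked on simulated data. Figures were drawn with matplotlib 3.10.9. Alternatives were other pseudocounts, filters, normalizations, variance models and weights, a replicate block and arrays left out.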

Additional observations from a re-analysis of the deposited data

Results flagged for a closer look

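The contrast of the VP16-CREB effect at 3 weeks with the A-CREB effect, a test of the difference between the effects themselves, was called for 8 probe sets. In log2 units the difference was 2.12 for C1qa, 1.92, 1.98 and 1.49 for the 3 probe sets of C1qb, 2.20 for C1qc, 1.54 for C4a/C4b, 1.74 for the brightest probe set of C3ar1 and 1.33 for Serping1, all larger in VP16-CREB. No probe set was called when the effects at 3 weeks and 1 week were set against each other. Groups of 2 or 3 pools are too small for a test of single outlying pools.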

How the results depend on the processing

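At 3 weeks the 8 calls became 5 with 1 probe set per gene, which tests 1 for each of 6 genes, and 8 to 9 with single arrays left out. At 1 week the 0 calls became 2 with the filter on the mean, at the brightest and the second C3ar1 probe set. Testing 1 probe set per gene gave 1 call, at the brightest. A pseudocount of 25, arrays centred on their median, and trend and robust variances gave 1 call each, at the second. The second C3ar1 probe set passed the main brightness filter only through transgenic pools. The contrast of 3 weeks with 1 week gave 1 call after quantile normalization, and array weights raised the calls among the 24 further genes at 3 weeks to 9. The share of all probe sets called was not counted for the alternative settings. Whether the replicate numbers pair the pools was unclear. Correlations of same-numbered pools were -0.164, -0.228 and 0.218 at 3 weeks, 0.153 for both numbers at 1 week, and -0.052, 0.407 and 0.265 in A-CREB. The highest between pools of different number were 0.338 at 3 weeks, -0.153 at 1 week and 0.053 in A-CREB. These correlations are of deviations from the group mean, which are equal and opposite where a group holds 2 pools. The 1 week values are thus a single quantity with its sign turned, and not separate pairs that agree. With a replicate block the 3 week calls were 8 and those of the contrast with A-CREB 6. The block also ended the calls of C4a/C4b at 1 week (adjusted p = 0.2) and in that contrast (0.0875), and that of Serping1 there (0.065). Signs turned only for differences that had not passed. For Cd59a they turned to -0.019 at 3 weeks and, in the contrast with A-CREB, to -0.031 (arrays centred) and -0.066 (quantile normalization). For Itgam in A-CREB the sign turned with array weights (0.15). With arrays left out, the brighter and dimmer Cd59a probe sets ran from -0.037 to 0.173 and from -0.218 to 0.082 at 3 weeks, from -0.026 to 0.486 and from -0.469 to 0.233 in A-CREB, and from -0.431 to 0.081 and from -0.317 to 0.384 in the contrast with A-CREB, and the dimmer from -0.037 to 0.326 in that with 1 week. The third C3ar1 probe set ran from -0.378 to 0.532 in A-CREB (-0.266 without littermate replicate 1) and from -0.738 to 1.856 in the contrast with 1 week, Itgam from -0.258 to 0.314 in A-CREB and from -0.030 to 0.325 in the contrast with 1 week, and Itgax in A-CREB from -0.110 to 1.252. The causes were not tested. Signal over background was not measured here, and C5ar1 and the third C3ar1 probe set were the dimmest.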
